A study of Mus musculus with 10 samples.

Results

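The comparison described here set induced mouse embryonic fibroblasts labelled as having divided on average 0 times against uninduced, serum-starved fibroblasts of the same kind. The 4 arrays, 2 per group, were taken by their titles from a series of 10 Affymetrix arrays in 5 groups. All groups were secondary inducible MEFs of a 129/SvJ x C57/B6 hybrid strain, that is, fibroblasts in which doxycycline switches on the reprogramming factors. The starved control carried the same inducible system without doxycycline and was kept in 0.5% FBS for 96 h. The undivided induced cells, like the induced groups labelled with 1, 2, and at least 3 average divisions, received doxycycline (2 ug/ul in the labels) in 15% FBS for 96 h. Doxycycline, serum and membership of a division cohort therefore all differ between the compared groups, and their parts in a difference cannot be told apart. The accession numbers fall into an early run of 4 arrays (the starved control and the cells of 3 or more divisions) and a later run of 6 (0, 1 and 2 divisions), so accession run and group cannot be told apart either. The labels do not say how cells of different division number were separated. The labels call the 2 control samples biological replicates and the 2 undivided samples only replicates. Nothing states separate cultures or animals, so p-values rest on a spread between arrays that may be technical. That spread was pooled over all 5 groups after the difference between replicate numbers was removed. Replicates that lie far apart can therefore have a small SE. The comparison asks what differed in cells that carried the induction and were labelled as undivided.

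Reprogramming of fibroblasts by Pou5f1, Sox2, Klf4 and Myc begins with loss of fibroblast transcripts and a gain of proliferative and epithelial ones, and the pluripotency network is switched on only later and in few cells. Serum starvation holds fibroblasts in quiescence, a reversible arrest outside the division cycle. Serum returns quiescent cells to the cycle and raises transcripts for ribosome assembly, nucleotide synthesis and DNA replication, and Myc is known for driving many of the same genes.

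Levels are log2 of the deposited intensity after quantile normalization of the 10 arrays, and a difference of 1 on this scale is a doubling. The deposited array medians lay between 31.4 and 33.95. Without detection calls it cannot be said which genes exceeded background, and differences of dim genes are compressed. Over the probe sets with 1 gene the 2 control arrays differed by a median of 0.19 and the 2 undivided arrays by 0.17, with largest differences of 4.60 and 4.81. The gap between 3′ and 5′ probe sets of Actb, a measure of RNA quality, was 0.26 and 0.26 on the control arrays and 0.35 and 0.29 on the undivided arrays. For Gapdh it was 0.06 and 0.03 on the control arrays and 0.12 and 0.12 on the undivided arrays. Both gaps were higher on the undivided arrays, and their part in the results was not tested. Vim, an intermediate filament protein of mesenchymal cells, was bright on all 4 arrays. It was at 14.3 and 14.2 on the control arrays and at 14.4 and 14.4 on the undivided arrays. Unlike Vim, 12 of 14 measured fibroblast markers had a difference below 0, with a median of -0.55, though 0 passed the test. These are bulk samples, so fewer cells of a type and less RNA per cell cannot be told apart.

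The undivided induced cells differed from the starved cells, mostly by rises. The genes that rose included 40 of 83 measured mitotic genes, 26 of 61 nucleolar genes of ribosome assembly and 16 of 58 DNA replication genes, as well as Herc1, Pou5f1, Myc and epidermal genes such as Krt16. The falls included Dner, Kcne4, Mfap4 and Lpl, 5 of 52 matrix genes and 3 of 48 interferon genes. With the replicate number as a block, limma's test called 809 of 34945 probe sets with 1 gene (2.32%) at a Benjamini-Hochberg adjusted p under 0.05, 569 higher (1.63%) and 240 lower (0.687%). Of these, 350 differed at least 2-fold, 231 higher and 119 lower. When each gene was represented by its brightest probe set, 515 of 18193 genes were called (2.83%), 371 higher (2.04%) and 144 lower (0.792%). The count rests on the block. Without it 26 probe sets (0.0744%) and 17 genes (0.0934%) were called, all of them also called with it, among them Herc1, Cdca7l, Snhg4, Tspan13, Dkc1, Gch1, Mt2, Fbl, Crispld2 and Smoc2. Of Wdr12, a dimmer probe set passed without the block (adjusted p = 0.0387) and the brightest did not (adjusted p = 0.0509). The calls also rested on single arrays: without replicate 1 of the undivided cells 20 probe sets passed, without its replicate 2 only 6, without replicate 2 of the control 117 and without its replicate 1 441.

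Across the 18193 genes the differences of the pairs had a Pearson r of 0.639, given as a description because genes are not independent and share the arrays. Of the 289 called genes with more than 1 probe set, 127 had a second one called the same way and 0 had one called the opposite way.

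**Figure D1:**
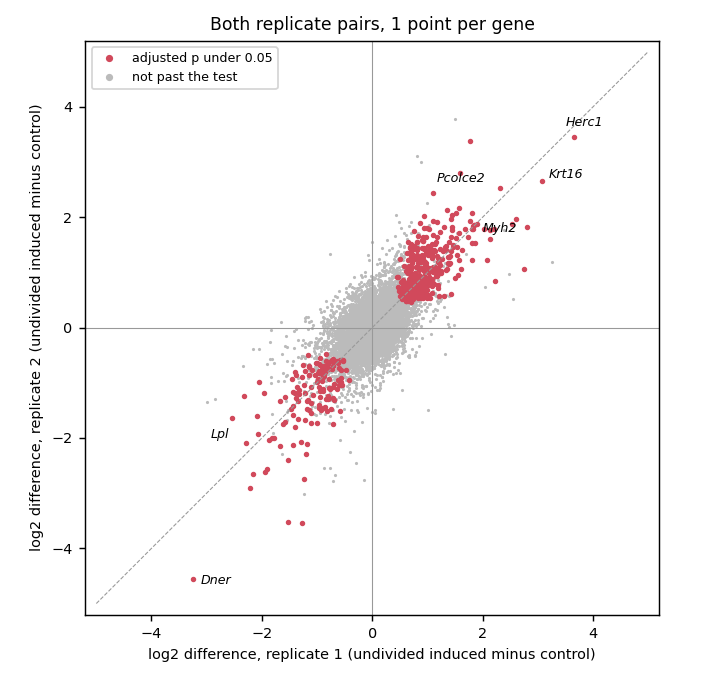
Log2 difference between undivided induced and starved control arrays in replicate 2 (vertical axis) against replicate 1 (horizontal axis), 1 point per gene for 18193 genes, with the 515 called genes in red. Called genes lie in the upper right and lower left, with Herc1 and Dner at the ends.

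Of the reprogramming factors, Pou5f1 and Myc rose and Klf4 and Sox2 did not pass the test. Pou5f1 (Oct4), a homeodomain factor of pluripotent cells, was at 3.92 and 3.61 on the control arrays and at 6.12 and 5.40 on the undivided arrays. The rise was 1.99 ± 0.30 (SE, n = 2 per group; adjusted p = 0.0163). Myc, a growth-promoting factor, was at 7.30 and 8.59 on the control arrays and at 9.38 and 9.82 on the undivided arrays, a rise of 1.65 ± 0.25 (adjusted p = 0.0165). For both genes every undivided array lay above every control array. Klf4, which also restrains fibroblast division, was at 10.35 and 10.62 on the control arrays and at 9.78 and 10.01 on the undivided arrays, a difference of -0.59 (adjusted p = 0.122). Sox2 was at 4.10 and 3.55 against 3.74 and 3.61, with overlapping groups and a difference of -0.15 (adjusted p = 0.767). The sources used here do not say whether these probe sets read the transgenes, the endogenous genes or both. Of 11 measured genes of the Myc network, 1 rose, Mxi1, an antagonist of Myc, by 0.63. The median of that list was 0.06, against -0.0046 over all genes.

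The largest rise was that of Herc1, a giant ubiquitin ligase. It stood at 6.94 and 6.93 on the control arrays and at 10.61 and 10.39 on the undivided arrays, an 11.8-fold rise (log2 3.56 ± 0.12, SE; adjusted p = 2.18e-05). A second Herc1 probe set rose by 3.17, while the third had a difference of 0.04 (adjusted p = 0.925), so its probe sets disagree. No other of the 20 measured HERC family and related ubiquitin ligase genes was called, and their median was -0.01. Krt16, a keratin of stressed and proliferating epidermis, went from 3.59 and 3.76 to 6.67 and 6.41, a rise of 2.87 ± 0.43 (adjusted p = 0.0165). Pcolce2, an enhancer of procollagen processing, rose by 2.42 from 6.55 and 5.62 to 8.86 and 8.15. Il1rn, the interleukin 1 receptor antagonist, rose by 2.32 from 5.93 and 7.68 to 8.74 and 9.51, and all 3 of its probe sets were called. Gch1, the first enzyme of tetrahydrobiopterin synthesis, rose by 2.19 from 5.38 and 4.62 to 6.97 and 7.42. In each of these genes the arrays of the groups did not overlap, which the rule for naming the largest rises required. The control arrays of Il1rn lay 1.75 apart. Cdca7l, a partner of Myc, rose by 1.91 ± 0.12 from 5.82 and 5.78 to 7.84 and 7.57, with the arrays of each group close together. Tspan13, a tetraspanin, rose by 1.94 from 6.89 and 6.40 to 8.69 and 8.48. The others of the 15 largest rises were Aldh3a1, Slurp1, Mfsd6, Snhg4, Cdh26, Myh2 and Dmp1, with rises between 1.87 and 2.58.

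**Figure D2:**
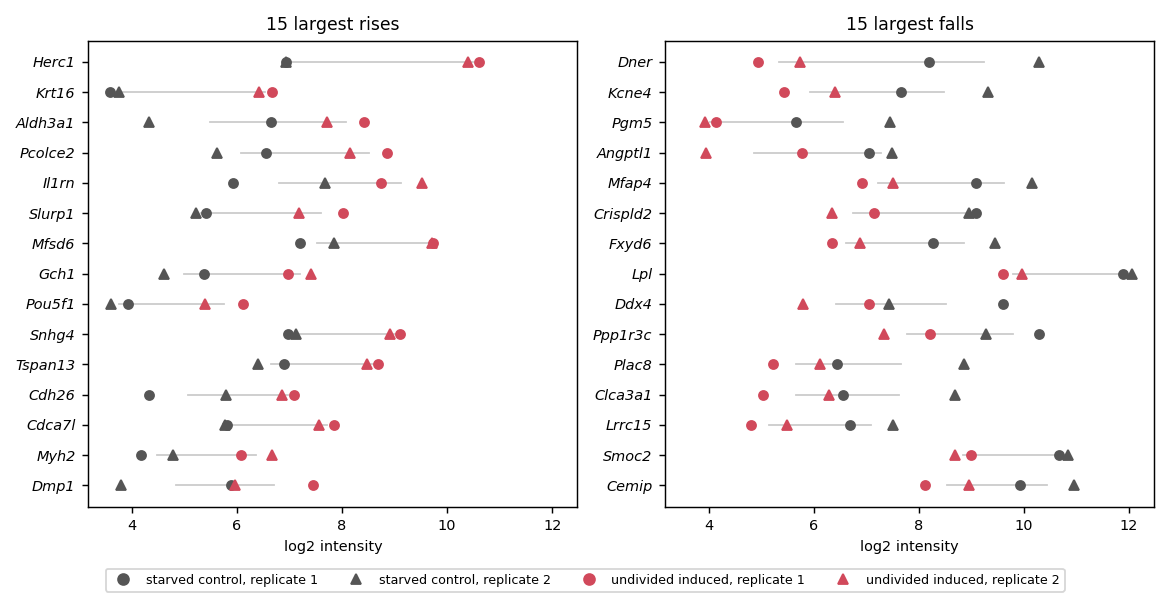
Log2 intensity (horizontal axis) of the 15 genes with the largest rise (left) and the 15 with the largest fall (right) on each control array (grey) and each undivided induced array (red), circles for replicate 1 and triangles for replicate 2, with a line joining the group means. The groups are apart in every gene shown because the genes were chosen so. The replicates of a group lie close together for Herc1 and Lpl but far apart for Dner and Plac8.

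Mitotic genes rose in cells labelled as undivided. Of 83 measured genes of the mitosis list, 40 rose, 0 fell and 43 did not pass, and 81 had a difference above 0, with a median of 0.90. Trip13, which remodels the spindle checkpoint protein Mad2, had the largest rise. It was at 7.35 and 7.07 on the control arrays and at 8.57 and 8.49 on the undivided arrays, a rise of 1.32 ± 0.18 (adjusted p = 0.0134). Birc5 (survivin), of the chromosomal passenger complex, went from 7.51 and 6.93 to 8.59 and 8.44, a rise of 1.30. Anln, a scaffold of the cleavage furrow, went from 8.24 and 8.25 to 9.30 and 9.69, a rise of 1.25, and Depdc1a rose by 1.25 from 5.03 and 4.41 to 5.78 and 6.16. The undivided arrays were above both control arrays for each of these genes. Passenger, checkpoint and spindle genes rose by like amounts: Aurkb and Bub1b by 1.22 and 1.21, Cdc20, which activates the anaphase-promoting complex, by 1.19, and the polo kinase Plk1 by 1.11. Pttg1 (securin) and Kif15, a spindle kinesin, had differences of 0.02 and -0.03 and did not pass. The control arrays were not alike for this list. Relative to their mean, the list median was 0.21 on replicate 1 and -0.21 on replicate 2, against 0.89 and 0.94 on the undivided arrays. Without replicate 1 of the control 35 mitotic genes were called and the median was 1.18. Without replicate 2 of the control, or either undivided array, 0 were called, with medians of 0.70 to 1.04, and without the block 0 were called.

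Some DNA replication, G1 cyclin and nucleotide synthesis genes also rose, while most members of these lists did not pass the test. Of 58 replication genes 16 rose and 0 fell, with a median of 0.62. Pola1, the catalytic subunit of the primase-bound polymerase, rose by 1.40 from 6.22 and 5.84 to 7.80 and 7.07. The helicase subunit Mcm6 rose by 1.39, from 8.89 and 7.65 to 9.99 and 9.33, and Mcm5 by 1.35. For Mcm6 the control arrays lay 1.24 apart. Cdt1, which loads the helicase on origins, rose by 1.22. Orc1, of the origin recognition complex, had a difference of -0.32 (adjusted p = 0.42). Of 21 G1 cyclin, kinase and E2F genes 5 rose and 0 fell, with a median of 0.36. Among them the E cyclins Ccne2 and Ccne1, which start S phase, rose by 1.09 and 1.08, Ccna2 by 1.04 and the repressor E2f7 by 0.83. Ccnd1, the D cyclin that responds to serum, was at 12.31 and 12.22 on the control arrays and 12.54 and 12.64 on the undivided arrays, a difference of 0.32 (adjusted p = 0.277). Of 29 nucleotide synthesis genes 11 rose and 0 fell, with a median of 0.57. Tk1, the thymidine kinase of S phase, had the largest rise, 1.52 ± 0.23, from 6.80 and 5.82 to 7.91 and 7.75. Rrm2, the regulated subunit of ribonucleotide reductase, and the purine enzyme Adsl both rose by 0.94, and Dut, which clears dUTP, by 0.90. Without replicate 1 of the control 11 replication and 2 nucleotide genes were called. Without any other of the 4 arrays, or without the block, 0 replication and 0 nucleotide genes passed.

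Promoters of the mitotic genes are shown because these members moved together. Windows from 250 bases before to 50 after the start were taken from RefSeq (GRCm38.p6), which held 77 windows for 70 of the 83 genes. They were searched on both strands for CCAAT, the letters bound by NF-Y, TTTGAA, the core of the cell cycle homology region, and CACGTG, the E-box bound by Myc and its partners. CCAAT was in 68.83% of mitotic windows against 37.37% of the 18109 windows of all genes measured. TTTGAA was in 64.94% against 13.4%, and both were in 50.65% against 5.23%. For the 40 called genes the table held 39 windows of 36 genes, and CCAAT and TTTGAA were each in 71.79%. Of 30 windows of nucleotide synthesis genes 20.0% held CACGTG, and of 55 replication windows 56.36% held CCAAT. A match is a description of letters, not of a bound site. The windows printed are those of the 3 called mitotic genes with the largest rise that have 1 window and hold both CCAAT and TTTGAA. They were chosen after the matches were seen, and the windows of Trip13 and Birc5, which rose more, held none of these motifs. Capitals mark CCAAT and TTTGAA or their reverse complements ATTGG and TTCAAA. The windows are chr3:159495183-159495482 (plus strand) for Depdc1a, chr2:118597961-118598260 (plus strand) for Bub1b, a checkpoint kinase, and chr8:22185770-22186069 (minus strand) for Ckap2, a spindle protein.
Depdc1a: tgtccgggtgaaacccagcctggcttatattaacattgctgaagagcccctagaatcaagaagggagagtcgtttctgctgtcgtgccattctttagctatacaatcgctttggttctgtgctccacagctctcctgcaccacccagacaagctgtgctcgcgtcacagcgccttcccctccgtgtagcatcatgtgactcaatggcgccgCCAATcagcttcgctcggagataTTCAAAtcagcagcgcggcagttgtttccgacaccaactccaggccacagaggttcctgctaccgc
Bub1b: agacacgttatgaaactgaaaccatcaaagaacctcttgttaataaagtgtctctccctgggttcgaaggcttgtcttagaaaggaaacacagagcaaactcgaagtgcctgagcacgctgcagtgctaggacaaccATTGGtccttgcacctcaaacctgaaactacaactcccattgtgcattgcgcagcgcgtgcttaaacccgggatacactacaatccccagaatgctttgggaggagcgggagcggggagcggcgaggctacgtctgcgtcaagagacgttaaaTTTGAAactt
Ckap2: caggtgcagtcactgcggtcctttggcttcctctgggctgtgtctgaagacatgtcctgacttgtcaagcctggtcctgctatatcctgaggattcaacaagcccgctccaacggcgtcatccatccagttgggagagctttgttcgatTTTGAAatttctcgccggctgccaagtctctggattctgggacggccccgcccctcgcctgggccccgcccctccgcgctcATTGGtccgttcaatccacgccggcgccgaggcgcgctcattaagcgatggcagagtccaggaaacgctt
Counted from the start, with the base before it as -1, the matches to CCAAT and TTTGAA begin at -39 and -16 in Depdc1a and at -113 and 41 in Bub1b. In Ckap2 the order is turned, with TTTGAA at -101 and CCAAT at -20.

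Nucleolar genes formed the other large group of rises. Small nucleolar ribonucleoproteins modify and fold ribosomal RNA, and the processome assembles on it to make the small subunit. Of 61 measured genes of these complexes and of large-subunit assembly, 26 rose and 0 fell. A difference above 0 was found in 60, and the median was 0.63. Dkc1, the pseudouridine synthase of box H/ACA particles, was at 8.61 and 8.60 on the control arrays and at 10.01 and 10.15 on the undivided arrays, a rise of 1.47 ± 0.11 (adjusted p = 0.00218), and all 3 of its probe sets were called. Fbl (fibrillarin), the methylase of box C/D particles, went from 9.94 and 9.97 to 11.15 and 11.13, a rise of 1.19, and its partner Nop56 rose by 1.32 from 9.31 and 9.55 to 10.44 and 11.06. The large-subunit assembly factors Nop16 and Wdr12 rose by 1.33 and 1.28. On the undivided arrays the list median was 0.55 and 0.71 above the control mean, and on the control arrays -0.06 and 0.06. Without the block 2 of the 26 were called, Dkc1 and Fbl, and without single arrays between 0 and 6, with medians of 0.61 to 0.69.

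Of 15 genes of RNA polymerase I, which transcribes ribosomal RNA, 2 rose: Polr1e by 1.37, from 7.08 and 7.62 to 8.41 and 9.03, and Polr1b by 1.22, from 6.29 and 6.45 to 7.48 and 7.70. The list median was 0.39. Of 30 ribosomal proteins 2 rose, Rpl14 by 0.99 and Rpl12 by 0.85, and the median was 0.14. Of 29 translation factors 2 rose, Pabpc4, a poly(A) binding protein, by 0.73 and Eif4b by 0.72, with a median of 0.33. All 26 nuclear pore and RNA export genes had a difference above 0 and both pairs positive, with a median of 0.33, yet 0 passed. The largest was the importin Kpna2 at 0.66 (adjusted p = 0.0536). Of 19 measured noncoding genes, mostly hosts of small RNAs, 3 rose. Snhg4 rose by 1.95 ± 0.13 from 6.97 and 7.13 to 9.10 and 8.90, Snhg3 by 1.36 and Snhg7 by 0.83. The arrays of these 3 genes did not overlap between the groups.

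CACGTG, the E-box, was in 21.82% of the 55 windows of the nucleolar genes against 8.72% of the windows of all genes measured. It was in 13.9% of the 367 windows of all genes called higher and in 8.87% of the 124 windows of genes called lower. The windows printed belong to the 2 called nucleolar genes with the largest rise that have 1 window with CACGTG, again chosen after the matches were seen. They are chr8:106893390-106893689 (plus strand) for Utp4, a processome subunit that rose by 0.83, and chr6:125131633-125131932 (plus strand) for Nop2, a ribosomal RNA methylase that rose by 0.81. Capitals mark CACGTG.
Utp4: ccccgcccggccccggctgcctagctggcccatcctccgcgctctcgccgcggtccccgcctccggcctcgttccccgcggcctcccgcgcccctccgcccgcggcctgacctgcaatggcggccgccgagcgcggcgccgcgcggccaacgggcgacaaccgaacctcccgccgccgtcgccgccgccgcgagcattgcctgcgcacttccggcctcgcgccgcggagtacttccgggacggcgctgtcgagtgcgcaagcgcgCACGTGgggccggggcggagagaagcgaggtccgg
Nop2: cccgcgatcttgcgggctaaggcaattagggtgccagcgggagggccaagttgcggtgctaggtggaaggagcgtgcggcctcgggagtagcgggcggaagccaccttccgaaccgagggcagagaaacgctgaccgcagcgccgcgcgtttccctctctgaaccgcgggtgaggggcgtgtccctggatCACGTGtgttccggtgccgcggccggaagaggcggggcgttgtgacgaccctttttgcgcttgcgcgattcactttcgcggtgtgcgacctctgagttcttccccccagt
CACGTG begins at 16 in Utp4 and at -60 in Nop2. The windows of Dkc1 and Nop16, which rose more, held no CACGTG.

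**Figure D3:**
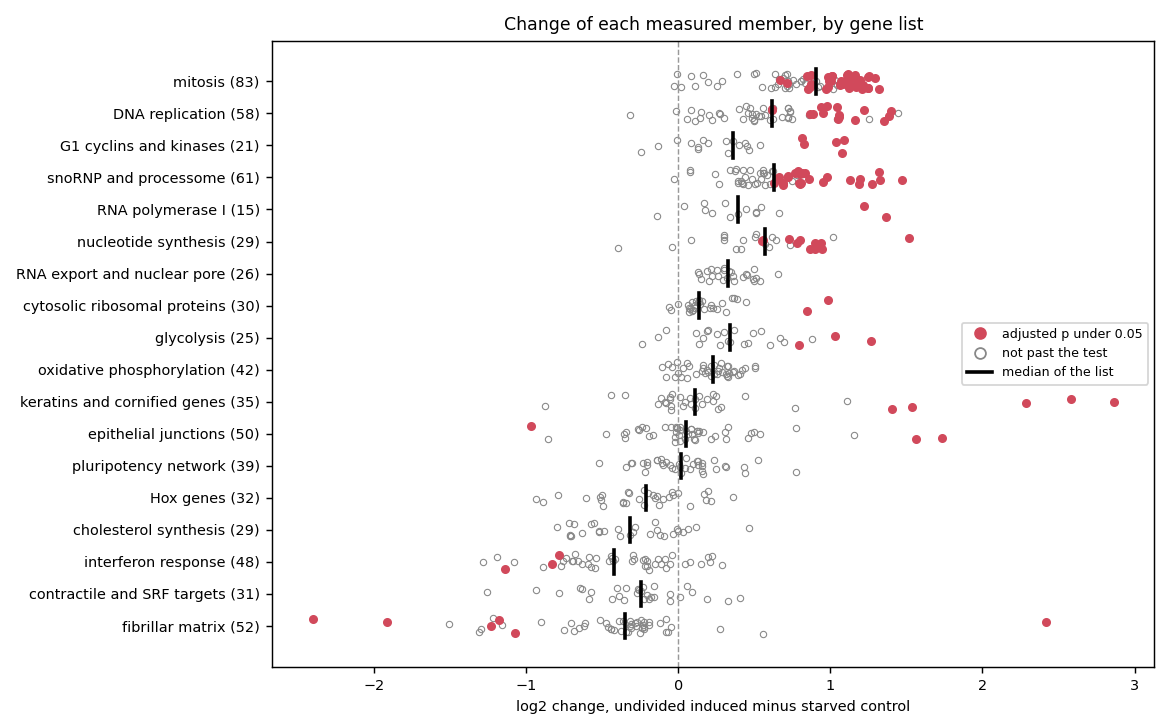
Log2 difference of each measured gene (points, red where called) in 18 gene lists, with the number measured in brackets and the list median as a black bar. The medians of mitosis, nucleolar and replication genes lie at 0.90, 0.63 and 0.62, and those of interferon and matrix genes at -0.42 and -0.35.

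Metabolic and stress genes showed fewer calls. Of 25 glycolysis genes 3 rose, with a median of 0.34. Slc16a1, a lactate carrier, rose by 1.27 from 7.52 and 6.84 to 8.64 and 8.25. Pdk1, a pyruvate dehydrogenase kinase, rose by 1.03, and Aldoc by 0.80. The other Pdk1 probe sets, at 0.73, 0.36 and 0.11, and the other Aldoc probe set, at 0.01, did not pass. Of 42 oxidative phosphorylation genes 0 passed, with a median of 0.23 and 35 above 0, and the largest was Uqcrc1 at 0.51 (adjusted p = 0.0847). Of 22 genes of amino acid supply 2 rose, Psat1, of serine synthesis, by 0.84 and Srm, of spermidine synthesis, by 0.78, and the median was -0.04. Of 21 tRNA synthetase genes 1 rose, Kars by 0.84, and of 30 chaperone and proteasome genes 2 rose, the mitochondrial chaperonin Hspd1 by 0.86 and Cct5 by 0.53. Of 32 glutathione and oxidative stress genes 3 rose and 1 fell. The metallothioneins Mt2 and Mt1, which bind metal ions, rose by 1.51 and 1.01. The other Mt1 probe set had a difference of -0.18 and did not pass. Mt2 was at 8.54 and 8.53 on the control arrays and at 10.16 and 9.94 on the undivided arrays. Gclc, the rate-limiting enzyme of glutathione synthesis, rose by 0.72, and the transferase Gstm2 fell by 0.89 on the log2 scale. Of 28 p53 and stress genes 2 rose, Ddit4l by 0.70 and Tigar by 0.56. Of 38 autophagy and lysosome genes 1 rose, the galactosidase Gla by 1.18, and of 18 circadian clock genes 0 passed.

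Among early growth response genes, 3 of 26 rose although the list median was -0.24. Egr3 rose by 1.47 from 7.09 and 7.03 to 8.56 and 8.50, Fosl1, an AP-1 subunit, by 1.12 from 5.87 and 5.45 to 6.64 and 6.92, and Klf10 by 1.02. The other Egr3 probe set had a difference of -0.26 and did not pass. Dusp6, a phosphatase that damps ERK, rose by 0.84, and the receptor Epha4 fell by 0.82 on the log2 scale with overlapping groups, the 2 calls among 25 ERK feedback and output genes. Among 29 quiescence and CDK inhibitor genes Klf9 rose by 0.58 and Gas6, named for its rise in growth arrest, fell by 1.00 from 12.29 and 12.08 to 11.28 and 11.10. The median of that list was -0.12. Of 49 genes of DNA methylation, histone variants and remodelers, Hmgb3 rose by 1.26, the variant histone gene H2az1 by 0.74, and H3f3b fell by 1.42 on the log2 scale. Of 41 Polycomb and histone methylation genes 0 passed, and the largest difference was 0.81 for Prmt1 (adjusted p = 0.137).

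A few epidermal genes rose, while most members of the epithelial lists did not pass the test. Of 35 keratin and cornified genes 5 rose and 0 fell, with a median of 0.11. Besides Krt16 these were Aldh3a1, a corneal and epidermal aldehyde dehydrogenase, by 2.58, Slurp1, a secreted epidermal protein, by 2.29, Fgfbp1, a carrier of fibroblast growth factors, by 1.53, and Krt19, a keratin of simple and progenitor epithelia, by 1.41. Slurp1 went from 5.41 and 5.22 to 8.01 and 7.19. Aldh3a1 went from 6.64 and 4.33 to 8.41 and 7.72, so its control arrays lay 2.31 apart, and its difference ranged from 1.58 to 3.58 when single arrays were left out. Fgfbp1 went from 3.97 and 5.13 to 6.20 and 5.97. Its control arrays lay 1.16 apart, and its difference ranged from 0.91 to 2.17. Krt14, a basal keratin, was at 4.26 and 4.70 against 5.62 and 5.55, a difference of 1.11 that did not pass (adjusted p = 0.297). Of 50 epithelial junction and surface genes 2 rose and 1 fell, with a median of 0.05. Cd24a, a surface glycoprotein, rose by 1.74 from 7.10 and 7.69 to 8.79 and 9.47, and the laminin receptor subunit Itga6 by 1.56 from 6.49 and 6.24 to 7.80 and 8.06. Lama3, a laminin chain of epithelial basement membranes, fell by 0.97 on the log2 scale. Of 9 measured keratinocyte markers only Krt16 was called, and Trp63, Krt5 and Epcam had differences of -0.35, -0.05 and -0.19. The summed intensity of the 9 markers, Krt16 included, was 264.2 to 295.7 on the control arrays and 360.8 to 381.8 on the undivided arrays. Their median difference was -0.05, with 4 above 0 and 5 below, so the higher sum was not a gain of most markers. The calls of this group are sensitive to single arrays: without replicate 1 or 2 of the control 2 and 1 keratin and cornified genes were called, and without either undivided array, or without the block, 0.

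For the pluripotency network the count of calls says little. Of 39 measured genes beyond the factors 0 passed, with a median of 0.02, but only 2.83% of all genes did. Only 7 of the 39 had a mean level above the median of all probe sets, and differences of dim genes are compressed. Nanog was at 3.28 and 3.51 on the control arrays and at 3.36 and 3.16 on the undivided arrays. The largest difference was 0.77 for Podxl, a sialomucin of stem cells, which was high on 1 undivided array only: it was at 4.68 and 4.51 against 4.67 and 6.06 (adjusted p = 0.549). Over all genes 5656 of 34945 probe sets had an unadjusted p under 0.05.

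The largest falls by the naming rule were those of Dner, Kcne4 and Pgm5. Dner, a Notch ligand, was at 8.19 and 10.29 on the control arrays and at 4.93 and 5.73 on the undivided arrays, a 15.0-fold fall (log2 -3.90 ± 0.34, SE; adjusted p = 0.00407). Both of its probe sets were called, and the control arrays lay 2.10 apart. Kcne4, a potassium channel subunit, went from 7.65 and 9.32 to 5.43 and 6.41, a difference of -2.57. Pgm5, a phosphoglucomutase-like protein of muscle adhesions, went from 5.66 and 7.45 to 4.14 and 3.92. Angptl1, an angiopoietin-like protein, went from 7.06 and 7.48 to 5.78 and 3.95. Its other probe sets had differences of -0.95 and 0.11 and did not pass. These genes were below both control arrays on both undivided arrays, which the naming rule required, and had wide replicates. Without single arrays the difference ranged from -3.40 to -1.66 for Pgm5 and from -3.31 to -1.51 for Angptl1. Lpl, which releases fatty acids from lipoproteins, had close replicates, 11.89 and 12.06 against 9.60 and 9.96, a difference of -2.19 ± 0.24 (adjusted p = 0.00763). It was the only call among 40 fatty acid and lipid genes, whose median was 0.04, and the only call among 7 adipocyte markers, whose median was -0.03. The summed intensity of these markers was 4720 and 4845 on the control arrays and 1738 and 1494 on the undivided arrays. Without Lpl the sum of the other 6 was 934 and 583 on the control arrays and 960 and 496 on the undivided arrays, so Lpl carried the lower sum. Crispld2, a secreted protein of mesenchyme, went from 9.09 and 8.96 to 7.14 and 6.34, a difference of -2.28, with all 3 of its probe sets called. The others of the 15 largest falls included Fxyd6, Ppp1r3c, Plac8, Clca3a1, Lrrc15 and the hyaluronidase Cemip, with differences between -2.24 and -1.91. Ddx4, an RNA helicase of germ cells, was at 9.59 and 7.43 on the control arrays and at 7.05 and 5.80 on the undivided arrays, and was the only call among 10 germ and pluripotent cell markers.

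Matrix genes had differences below 0 in nearly all members, but few passed. Of 52 measured genes of the fibrillar matrix list 49 had a difference below 0, with a median of -0.35, and 5 fell while Pcolce2 rose. Mfap4, of elastic microfibrils, went from 9.08 and 10.15 to 6.92 and 7.51, a difference of -2.40 ± 0.25 (adjusted p = 0.00615). Smoc2, a calcium-binding matrix protein, went from 10.66 and 10.84 to 8.99 and 8.69, a difference of -1.91, and both arrays of each group were close. Tnc (tenascin C) went from 10.77 and 12.94 to 10.05 and 11.19, a difference of -1.23 with the control arrays 2.17 apart, overlapping groups and a range of -1.67 to -0.80 when single arrays were left out, and Thbs2 and Aspn had differences of -1.18 and -1.07. The collagens Col1a1, Col1a2 and Col3a1 had differences of -0.69, -0.23 and -0.08 and did not pass. Without replicate 2 of the control 1 matrix gene was called lower, without either undivided array 0, and without the block Smoc2 alone. Of 30 proteases and inhibitors of the matrix, Adamts9 and Adamts4 fell by 1.51 and 0.62 on the log2 scale. Of 14 fibroblast markers 12 had a difference below 0, with a median of -0.55, but 0 passed. Their summed intensity was 128523 to 137811 on the control arrays and 108280 to 115262 on the undivided arrays.

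Growth factor and signalling genes gave scattered falls. Of 35 IGF and PDGF system genes 2 fell, with a median of -0.22: Igfbp3, the main carrier of IGF, from 11.04 and 12.22 to 9.87 and 10.12, a difference of -1.64, and Gas6. Of 39 Wnt genes Lgr5, an R-spondin receptor, fell from 9.92 and 10.02 to 8.52 and 8.21, a difference of -1.60 ± 0.19 (adjusted p = 0.00875), and Znrf3, a ligase that removes Wnt receptors, rose by 0.64. Of 38 TGF-beta and BMP genes Inhbb, an activin subunit, and Ltbp2, a binding protein of the TGF-beta matrix store, had differences of -1.33 and -1.29, with a list median of -0.23. The groups overlapped for Ltbp2, at 11.18 and 12.51 against 9.78 and 11.32. Ackr3, a scavenging chemokine receptor, fell 1.99-fold, the only call among 32 complement and chemokine genes.

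Most interferon and cholesterol synthesis genes had differences below 0. Of 48 interferon response genes 41 had a difference below 0, the median was -0.42, and 3 fell, the guanylate binding protein genes Gbp2 and Gbp7 and the ADP-ribosyltransferase gene Parp14, with differences of -1.14, -0.83 and -0.78. The median ranged from -0.43 to -0.32 when single arrays were left out, with 0 or 1 of the 48 called. Gbp2 went from 6.61 and 7.25 to 5.38 and 6.21. Of 29 cholesterol synthesis genes 25 had a difference below 0 and 0 passed, and the median of -0.32 ranged from -0.60 to -0.09 when single arrays were left out. The largest was -0.80 for Fdft1, squalene synthase (adjusted p = 0.239).

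Some mesenchymal genes differed widely between the replicate numbers. Of 10 smooth muscle and pericyte markers 10 had a difference below 0 and 0 passed. Their summed intensity was 25787 and 33730 on the control arrays and 17730 and 31376 on the undivided arrays, so replicate 2 was the higher in both groups. Myh11, a smooth muscle myosin, was at 5.54 and 7.76 against 4.44 and 6.34. Of 31 contractile genes and SRF targets 0 passed, with a median of -0.25. Of 32 Hox genes 26 were below 0, with a median of -0.21, and 0 passed. Hoxc8 was at 7.33 and 8.99 against 6.20 and 8.24, and Shox2, a limb regulator, at 7.44 and 9.04 against 6.65 and 8.13, so their groups overlap. Of 23 imprinted growth genes 0 passed: Dlk1, a preadipocyte factor, went from 11.34 and 11.68 to 9.71 and 9.40, a difference of -1.96 ± 0.43 (adjusted p = 0.0594). Of the other marker lists, endothelial markers gave 1 rise, Tek by 1.48, and 1 fall, Flt1 by 1.75 on the log2 scale, among 11, and macrophage markers gave 1 fall, Lyz2 by 1.22, among 13. Muscle, erythroid, cartilage and bone, and neural markers gave 0 calls among 11, 5, 9 and 10.

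The induced cells that had divided give the levels of the same genes in cohorts kept under induction for the same 96 h. The cohorts are therefore not time points, and an order of events was not tested. The contrasts with the divided cohorts share the undivided arrays with the comparison above, so their values are given side by side only. Against the undivided cells 0 probe sets were called after 1 division (0%), with the same limma test, 342 after 2 (0.979%) and 7690 after 3 or more (22%). The contrasts of 1 and 2 divisions lie within the later accession run, while that of 3 or more crosses the runs. In the last contrast division number and accession run cannot be told apart. Herc1 was at 10.22, 10.36 and 10.41 after 1, 2 and 3 or more divisions, and its difference between 3 or more divisions and 0 was -0.09 (adjusted p = 0.69). Tspan13 was at 8.13, 8.32 and 8.35, with a difference of -0.24 (adjusted p = 0.28). Krt16 was at 7.48, 7.78 and 10.35, and Pou5f1 at 5.82, 5.97 and 7.93. Myc was at 9.50 and 9.73 after 1 and 2 divisions and was higher by 1.40 after 3 or more than after 0. Myh2, a fast muscle myosin that rose from 4.18 and 4.78 to 6.08 and 6.66, was at 4.39, 3.56 and 4.20 in the divided cohorts, and its difference between 3 or more divisions and 0 was -2.17. Cdh26, a cadherin, was at 5.06 in the control, at 6.97, 6.93 and 6.97 after 0, 1 and 2 divisions and at 4.88 after 3 or more, a difference of -2.09 from the undivided cells. Dmp1, a bone matrix protein, was at 4.84 in the control, at 6.71, 7.14 and 7.70 after 0, 1 and 2 divisions and at 4.37 after 3 or more, a difference of -2.34. Its replicates lay far apart, at 5.88 and 3.79 in the control, 7.46 and 5.97 after 0 divisions and 8.76 and 5.53 after 1. Only 1 of the 3 Dmp1 probe sets was called against the control, and without the block it did not pass limma's test (adjusted p = 0.682). The rise of Cdh26 in the undivided cells ranged from 1.21 to 2.63 when single arrays were left out. The group means of Cdh26 and Dmp1 were thus high in the 3 groups of the later accession run and low in both groups of the early run, unlike those of Myh2, and accession run and group cannot be told apart for them. Among the falls, Lrrc15 and Lama3 were higher by 1.92 and 2.17 after 3 or more divisions than after 0. Lrrc15 was at 6.68 and 7.51 in the control, 4.81 and 5.48 after 0 divisions and 7.04 and 7.10 after 3 or more. Lama3 was at 6.5 and 6.0, at 5.3 and 5.3, and at 7.4 and 7.5 in these groups. Both genes were thus higher in both groups of the early run than in the undivided cells. Accession run and group cannot be told apart for them either. Lpl and Smoc2 were lower still after 3 or more divisions, with differences of -2.58 and -2.30 from the undivided cells.

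**Figure D4:**
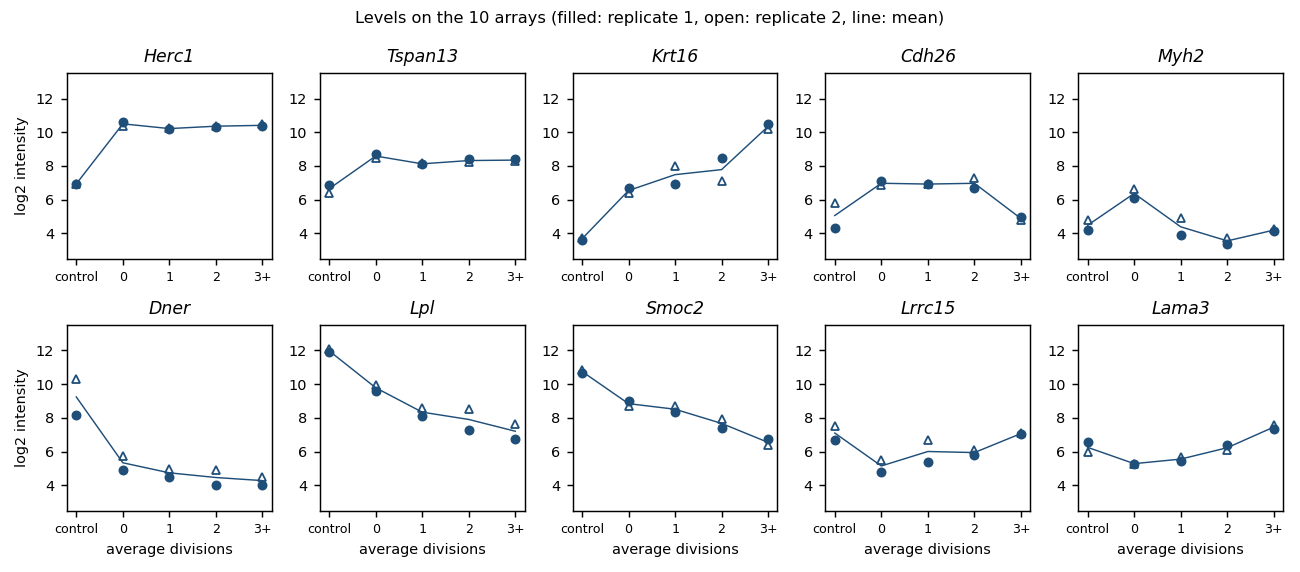
Log2 intensity of 10 genes on the 10 arrays (vertical axis) by group (horizontal axis: starved control, then induced cells with an average of 0, 1, 2, and 3 or more divisions), filled circles for replicate 1, open triangles for replicate 2 and lines through the means. After 3 or more divisions Herc1, Tspan13, Krt16 and Cdh26 lie at 10.41, 8.35, 10.35 and 4.88. Myh2 lies at 4.39 after 1 division.

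Seen by list, the median level of the mitotic genes relative to the control mean was 0.89 and 0.94 on the undivided arrays and 1.39 and 1.59 on the arrays of 3 or more divisions. It was 1.08 and 0.75 after 1 division and 1.1 and 1.0 after 2. For the nucleolar genes it was 0.55 and 0.71 in the undivided cells and 1.32 and 1.60 after 3 or more divisions. Between 3 or more divisions and 0, 53 of 61 nucleolar genes, 37 of 58 replication genes and 41 of 83 mitotic genes were called higher, against 13.6% of all genes. That contrast also crosses the accession runs, so division number and run cannot be told apart in its counts. The matrix list stood at -0.39 and -0.45 in the undivided cells and at -1.46 and -1.57 after 3 or more divisions, where 35 of 52 genes were called lower against 10.7% of all genes. Of the keratin and cornified genes 21 of 35 were called higher in that contrast. The cholesterol list was at -0.41 and -0.25 in the undivided cells and at 0.13 and -0.12 after 3 or more divisions.

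**Figure D5:**
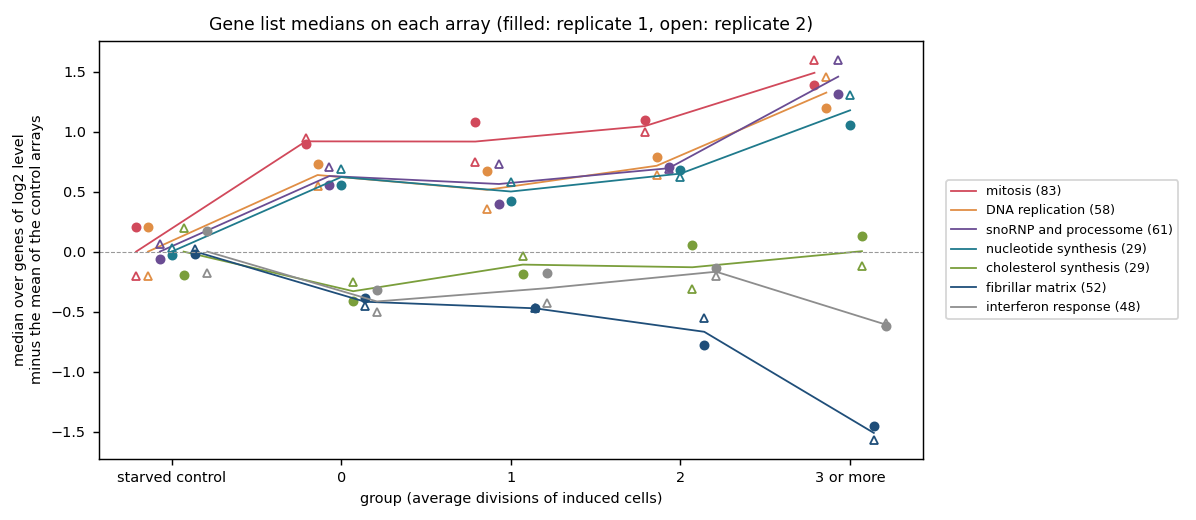
Median over the genes of 7 lists of the log2 level minus the mean of the 2 control arrays (vertical axis) on each array by group (horizontal axis), filled circles for replicate 1, open triangles for replicate 2 and lines through the means. Mitotic genes lie at 0.89 and 0.94 on the undivided arrays, and matrix genes at -0.39 and -0.45. Matrix genes lie at -0.47 and -0.47 after 1 division, at -0.78 and -0.56 after 2, and at -1.46 and -1.57 after 3 or more.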

How the data were processed

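Total RNA of the cells was hybridised to 10 Affymetrix mouse arrays. The authors deposited a table of linear intensity per probe set. The submitters' processing notes name RMA on the 4 arrays of the early accession run and no tool on the other 6. Of 45101 probe sets, 34945 had 1 gene in the platform's table. Another 932 had several genes, and 9211 were not listed.

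Intensities were put on the log2 scale and quantile normalized over the 10 arrays. limma 3.58.1 in R 4.3.3 (lmFit, eBayes) fitted 5 groups with the replicate number as a block, two-sided, adjusted by Benjamini-Hochberg over the 34945. The block was made the main design because the comparison was set to pair arrays by replicate number, and at a time when it was known to give more calls. The labels state no shared culture. Between groups, same-numbered arrays deviated together from their group means in each of 10 group pairs (r between 0.477 and 0.872, and 0.819 for the compared groups, over 9096 genes), a hint from the data. The brightest probe set stood for its gene.

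The members, the 44 gene lists, the 11 marker lists and the rules were chosen with earlier results of these data known. Named were the 15 largest rises and falls among called genes with the groups apart, the same sign in both pairs and the higher group above the median of all probe sets, the 4 factors, and of each list up to 4 called members or the largest where none was called; other genes in the text, such as Nanog, Ccnd1, Plk1, Fbl, Krt19, Krt14, Tek, Flt1 and Lyz2, were chosen after their values were seen. Listed genes without a probe set of their own were not analysed here. The fit was tested on simulated data. Alternatives tried were the block, the normalization, a floor, a filter, the arrays sharing the spread, an intensity trend, 1 probe set per gene and leaving out each array.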

Additional observations from a re-analysis of the deposited data

How the results depend on the processing

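Of the 101 called genes named in the text by rule, 0 changed sign in any setting. This says little, because all 809 called probe sets had the same sign in both replicate pairs. The calls rest on few arrays. Without the replicate block 26 probe sets passed, 16 higher and 10 lower (genes: 11 higher, 6 lower), and 9 of the 101 genes were kept. Leaving out single arrays with the block gave 6 to 441 probe sets, 5 to 274 higher and 1 to 167 lower (genes: 4 to 181 higher, 0 to 96 lower). In settings added after the data were seen, leaving out an array without the block gave 27 probe sets (14 higher, 13 lower; genes 10 and 9) without replicate 1 of the control and 6 (6 and 0; genes 5 and 0) without its replicate 2. It gave 7 (6 and 1; genes 5 and 0) without replicate 1 of the undivided cells and 5 (5 and 0; genes 4 and 0) without its replicate 2. The 4 compared arrays alone gave 849 probe sets with the block, 486 higher and 363 lower, and 0 in limma's test without it (0 higher, 0 lower; genes 0 and 0), with 3208 at an unadjusted p under 0.05. With a floor of 16, 80 probe sets passed, 53 higher and 27 lower (genes: 35 and 13), and the cause was not tested. Not all calls of these settings were calls of the main fit. It shared 45 of the 80 with the floor and 559 of the 849 of the 4 compared arrays alone with the block. The values as deposited, median centring, the 8 arrays up to 2 divisions, an intensity trend, 1 probe set per gene and a filter on dim probe sets gave 591 to 1167. Leaving out single arrays with the block moved the medians of 10 to 19 of the 44 gene lists by more than the SD between the replicate pairs. The median of the contractile genes then ranged from -0.36 to -0.10, that of the Hox genes from -0.26 to -0.12, that of the IGF and PDGF genes from -0.34 to -0.19 and that of the Wnt genes from -0.24 to -0.13. On the forward strand alone CCAAT was in 46.75% and TTTGAA in 44.16% of mitotic windows; CACGTG reads the same on both strands. The median over all probe sets moved by less than 0.1 in every setting. Values without detection calls limit what can be said of dim genes.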

Other observations

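Several genes outside the fixed lists changed as much as those within them. They were chosen after their values were seen. Dnph1, a hydrolase of nucleotide metabolism, was at 6.31 and 6.22 on the control arrays and at 8.13 and 8.06 on the undivided arrays, a rise of 1.83 ± 0.11 (SE; limma adjusted p = 0.00115 with the block and 0.00292 without it). Cdca7, a paralog of Cdca7l that acts in DNA methylation with the remodeler Hells, rose by 1.87 from 5.54 and 5.61 to 7.67 and 7.22. Tfrc, the transferrin receptor that brings iron into dividing cells, rose by 1.67 from 6.41 and 7.20 to 8.22 and 8.73. Polr3g, a subunit of RNA polymerase III, rose by 1.57 from 4.98 and 5.27 on the control arrays, and Dctd, the deoxycytidylate deaminase, by 1.53. Epas1, a hypoxia-inducible factor, rose by 1.64 from 6.56 and 6.79 to 8.01 and 8.62. Sbsn, a secreted protein of stratified epithelia, rose by 1.85 ± 0.23, and Adh7, a retinol and alcohol dehydrogenase, by 1.78. Of these genes Dnph1 alone passed the test without the block.

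Among the falls outside the lists, Mdk (midkine), a heparin-binding growth factor, was at 7.40 and 8.15 on the control arrays, with a difference of -1.49 ± 0.13. C1qtnf2, a secreted protein related to complement, went from 8.15 and 7.68 to 6.54 and 5.95. Atp1b1, a subunit of the sodium pump, went from 10.37 and 9.11 to 8.28 and 7.50, and Srpx2 from 8.02 and 8.85 to 6.23 and 6.85. Ptprz1, a receptor phosphatase that binds midkine, was at 7.20 and 9.91 on the control arrays and at 5.77 and 7.77 on the undivided arrays, so replicate 2 was the higher in both groups. None of these falls passed without the block.

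Probe sets without a single gene name also passed. In a limma fit of 45037 probe sets with the block, 35 of the 9160 probe sets that the platform's table does not list were higher and 14 lower. Of the 932 probe sets with several genes 17 were higher and 4 lower. Over all 45037 probe sets of that fit 819 were called. The unlisted probe sets lay below that share and those with several genes near it, so these counts single out neither kind.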
